A study of Mus musculus with 18 samples.

Results

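Genes of mitochondrial and peroxisomal fatty acid oxidation were examined in brown adipose tissue (BAT) and white adipose tissue (WAT) of mice that overexpressed human FXR in fat and of wild-type mice. FXR, the farnesoid X receptor, is a transcription factor whose ligands are bile acids. The members were 34 genes listed by name, of which 33 were measured among 19937 genes on the array. By textbook location of their products, 19 of the measured genes were mitochondrial, 8 were peroxisomal, 5 belonged to both or had an unsettled place, and Pdk4 was included as a regulator. Cpt1b, the muscle-type carnitine palmitoyltransferase, was matched only by a probe set that also names Gm44502 and therefore has no value here.

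The 4 groups were BAT of 5 FXR mice, BAT of 5 control mice, WAT of 4 FXR mice and WAT of 4 control mice. Per the labels all were male C57BL/6J mice, 10 weeks old and on chow, FXR mice overexpressed human FXR specifically in adipose tissue, and control mice were wild type. The promoter of the transgene, the number of founder lines, the white depot and whether both tissues came from the same animals are not given in the sources used here. For control BAT 2 and 4 alone, the labels add that the diet had lasted 6 weeks, so the counts of genes called in BAT are also given without this pair. Nothing in the labels says how the replicates were obtained beyond their numbers, so each p-value measures the spread between these samples.

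Beta-oxidation shortens an activated fatty acid from its carboxyl end by a repeated cycle of dehydrogenation, hydration, a second dehydrogenation and thiolysis. Long-chain acyl groups enter mitochondria as carnitine esters, and electrons from the acyl-CoA dehydrogenases reach the respiratory chain through electron transfer flavoprotein. Peroxisomes shorten very long-chain and branched acyl groups, using oxidases for the first step. In brown fat, mitochondrial beta-oxidation supplies the fuel for heat production. PPAR alpha with its coactivator PGC-1 alpha, and the estrogen-related receptor ERR alpha, are known activators of these genes.

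Levels are given as log2(intensity + 1), where intensity is the authors' value for the brightest single-symbol probe set of a gene. A gene was called where limma's adjusted p, after Benjamini-Hochberg over all 19937 genes, was under 0.05. A difference is FXR minus control unless stated otherwise, with its standard error (SE), and the number of arrays limits the precision. Brightness depends on the probe set, so a level is compared between arrays and not between genes. Correlations between arrays of 1 group, across genes, were 0.973 to 0.994 in FXR BAT, 0.992 to 0.995 in control BAT, 0.980 to 0.992 in FXR WAT and 0.983 to 0.992 in control WAT. Array medians were 93.1 to 99.9 in BAT and 60.5 to 61.7 in WAT, a gap between tissues that was left as deposited. The tissue labels held for the marker genes examined in the control groups. Ucp1, the uncoupling protein of brown fat, averaged 13.25 ± 0.12 in control BAT (SD, n = 5) and 5.80 ± 0.06 in control WAT (SD, n = 4), while Lep, which encodes leptin, averaged 6.59 ± 0.12 in control BAT and 8.91 ± 0.45 in control WAT. In FXR BAT, Lep averaged 7.58 ± 0.59 (SD, n = 5), higher than in control BAT by 0.99 ± 0.23 (SE, limma adjusted p = 0.0143). Mouse Nr1h4, the FXR gene of the host, averaged 6.26 ± 0.05 in FXR BAT and 6.21 ± 0.05 in control BAT (SD, n = 5 each) and was not called, and the labels do not say whether its probe set reads the human transcript.

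In FXR BAT, 19 of the 33 genes were lower than in control BAT, 1 was higher and 13 were not called, against 8.75% of all genes lower and 7.01% higher. The 19 comprised 15 mitochondrial genes, the peroxisomal genes Acaa1b, Hsd17b4 and Decr2, and Crat. Estimates were below 0 for 31 of the 33 genes, with a median difference of -0.25, against 0.01 over all genes. All 5 FXR arrays lay below all 5 control arrays for 14 genes of the 33, and the same held for 6.29% of all genes. Without control BAT 2 and 4, 8 members were lower (Cpt2, Acadm, Acadl, Acads, Acad9, Eci1, Etfdh and Crat) and Cpt1a was higher, against 3.57% of all genes lower and 3.53% higher in that setting. Because these are whole tissues, fewer cells of a type and less RNA per cell cannot be told apart.

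The size of these differences moved with brightness. Of the 33 genes, 17 had a mean BAT level of 11 or more, and 13 of these 17 were lower in FXR BAT, with a median difference of -0.26. Among the other 205 genes of that brightness, 115 were lower, which is 56.1%, and their median difference was -0.25. At levels from 9 to 11, 5 of 9 members were lower with a median of -0.25, against 39.0% and -0.18 for the other genes in that range. The 99th percentile of gene levels was 10.94 to 11.20 on FXR BAT arrays and 11.17 to 11.38 on control BAT arrays. When the 10 BAT arrays were brought to 1 distribution by quantile normalization, 5 members were lower (Acadm, Acads, Eci1, Acaa1b and Crat), and 1 was higher (Cpt1a), against 6.88% of all genes lower and 5.38% higher. At level 11 or more, 3 of the 17 members were then lower with a median difference of -0.01, against 10.7% and -0.03 for the other genes. With each array centred on its median instead, 24 members were lower and 0 higher, against 4076 and 776 of the 19937 genes. At level 11 or more, 16 of the 17 members and 69.3% of the other genes were lower in that setting. The lower calls of most members were therefore shared with other bright genes and depended on the scaling of the arrays.

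**Figure D1:**
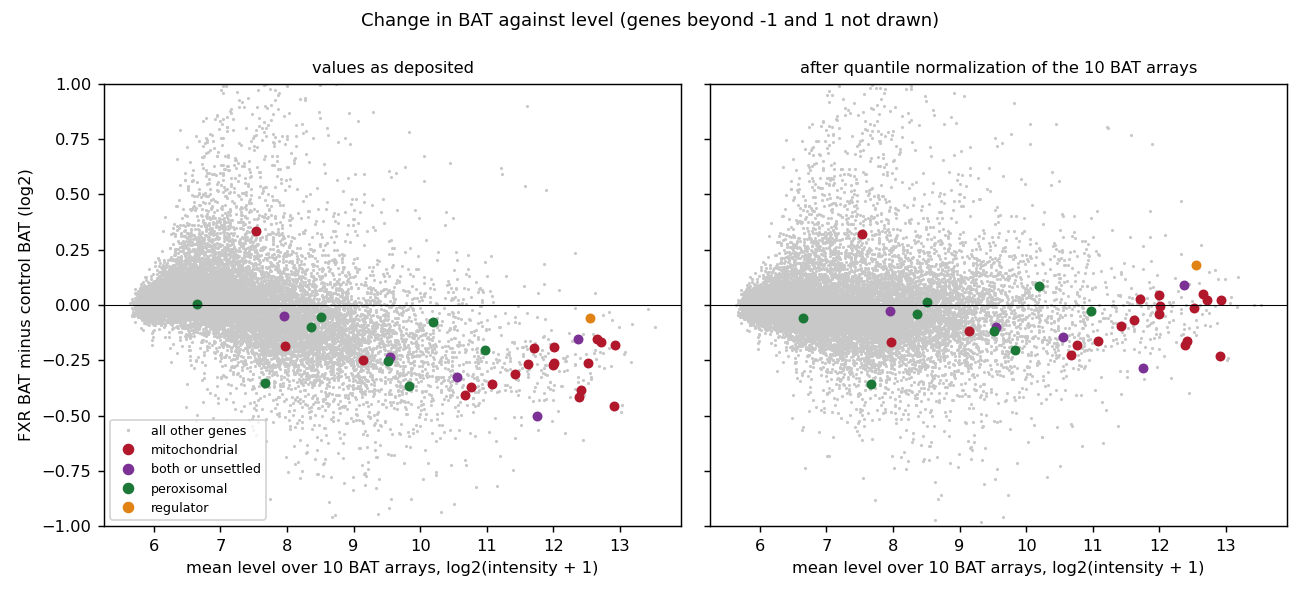
The horizontal axis is the mean level over the 10 BAT arrays, log2(intensity + 1), and the vertical axis is FXR BAT minus control BAT in log2 units, with grey points for all other genes and coloured points for the 33 fatty acid oxidation genes by place. With values as deposited, bright members and bright other genes both lie mostly below 0, with medians of -0.26 and -0.25 at level 11 or more, and after quantile normalization most of them lie near 0.

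Cpt1a, Cpt2, Crat and Crot, the 4 measured genes of acyl transfer to or from carnitine, differed in direction. Cpt1a, the liver-type carnitine palmitoyltransferase of the outer membrane that controls the rate of entry into mitochondria, read 7.65, 7.73, 7.57, 7.90 and 7.66 in FXR BAT, against 7.22, 7.44, 7.37, 7.58 and 7.23 in control BAT. FXR BAT 1, 2, 4 and 5 exceeded every control array, and the groups overlapped only because FXR BAT 3 lay just below control BAT 4. Cpt1a rose by 0.33 ± 0.08 (SE, limma adjusted p = 0.0150), and it was the 1 member called higher. Its estimate was 0.32 after quantile normalization (adjusted p = 0.0229), 0.25 with each array centred on its median (adjusted p = 0.0514) and 0.25 without FXR BAT 1, 2 and 4 (adjusted p = 0.162).

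Cpt2, the inner-membrane enzyme that releases acyl groups from carnitine, read 10.40, 10.71, 10.52, 10.70 and 10.57 in FXR BAT, against 10.90, 11.11, 10.88, 11.06 and 10.81 in control BAT. No FXR array reached the lowest control array. The difference was -0.37 ± 0.07 (adjusted p = 0.00578), and it was -0.18 after quantile normalization (adjusted p = 0.0800). Crat, carnitine acetyltransferase, which buffers acetyl-CoA in mitochondria and peroxisomes, read 11.37, 11.57, 11.52, 11.58 and 11.49 in FXR BAT, against 12.05, 12.16, 11.88, 12.11 and 11.85 in control BAT. These groups did not overlap either. Crat fell by 0.50 (SE 0.06, adjusted p = 5.04e-04), the largest difference among the 33 genes, which corresponds to 29.5% lower, and by 0.29 after quantile normalization (adjusted p = 0.0130). Crot, the peroxisomal carnitine octanoyltransferase, had a difference of -0.25 ± 0.08 and was not called (adjusted p = 0.0534).

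Promoter sequences are shown for the 4 genes whose window held the core motif of nuclear receptors, AGGTCA, since the set includes both the member that was higher and 3 members that were lower. Sequences are RefSeq's on GRCm38.p6 and give the 250 bases before the start site, in the direction of the gene, with capitals marking AGGTCA or its reverse complement TGACCT. Acadm lies at chr3:153944644-153944893 on the minus strand, Acadvl at chr11:70015429-70015678 on the minus strand, Echs1 at chr7:140116422-140116671 on the minus strand and Cpt1a at chr19:3323051-3323300 on the plus strand.
Acadm: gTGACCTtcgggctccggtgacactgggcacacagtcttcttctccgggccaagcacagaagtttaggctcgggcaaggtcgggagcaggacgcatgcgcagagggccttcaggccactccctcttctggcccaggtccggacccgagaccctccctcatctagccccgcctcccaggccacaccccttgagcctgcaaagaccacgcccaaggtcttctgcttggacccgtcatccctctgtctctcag
Acadvl: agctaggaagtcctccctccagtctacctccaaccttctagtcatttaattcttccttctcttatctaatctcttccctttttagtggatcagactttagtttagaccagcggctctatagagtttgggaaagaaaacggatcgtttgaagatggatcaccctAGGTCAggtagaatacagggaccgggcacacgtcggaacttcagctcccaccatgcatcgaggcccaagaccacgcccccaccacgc
Echs1: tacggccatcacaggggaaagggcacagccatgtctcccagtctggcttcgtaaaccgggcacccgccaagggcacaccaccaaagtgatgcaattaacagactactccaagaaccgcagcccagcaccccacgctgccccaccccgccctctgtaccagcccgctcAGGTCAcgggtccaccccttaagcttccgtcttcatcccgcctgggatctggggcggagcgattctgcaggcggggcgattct
Cpt1a: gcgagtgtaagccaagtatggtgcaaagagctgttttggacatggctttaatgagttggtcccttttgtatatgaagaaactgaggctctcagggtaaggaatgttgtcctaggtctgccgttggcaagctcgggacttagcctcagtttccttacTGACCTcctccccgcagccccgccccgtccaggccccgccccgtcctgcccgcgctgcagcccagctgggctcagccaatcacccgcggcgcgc
The motif began 249 bases before the start site in Acadm, 87 in Acadvl, 83 in Echs1 and 94 in Cpt1a. The Cpt1a start site of this window lies 975 bases inside the annotated extent of the gene, which therefore begins further upstream, and the sequence before that first position was not used here. RefSeq windows of 250 bases before to 50 bases after the start were available for 27 of the 33 members, and 4 held AGGTCA on either strand, as did 16.3% of 32851 windows of the same length. The direct repeat with 1 base between copies (AGGTCANAGGTCA, the form PPAR binds with RXR) was in 0 of the 27 and in 0.040% of all windows. The inverted repeat with 1 base between copies (AGGTCANTGACCT, the form FXR binds with RXR) was in 0 of the 27 and in 0.009% of all windows. The extended core of estrogen-related receptors (TCAAGGTCA, which overlaps AGGTCA) was in 0 of the 27 and in 0.423% of all windows.

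The acyl-CoA dehydrogenases perform the first step of the mitochondrial cycle, each for its own chain length. Acadm, the medium-chain enzyme, read 12.59, 12.64, 12.78, 12.71 and 12.66 in FXR BAT, against 13.26, 13.22, 13.08, 13.12 and 13.00 in control BAT. Every FXR array was below every control array by a clear gap. Acadm fell by 0.46 (SE 0.05, adjusted p = 2.56e-04), or 27.2%, and by 0.23 after quantile normalization (adjusted p = 0.0440). Acads, the short-chain enzyme, read 10.36, 10.43, 10.64, 10.44 and 10.49 in FXR BAT, against 10.99, 10.94, 10.77, 10.97 and 10.73 in control BAT. Its groups did not overlap, with FXR BAT 3 nearest to the controls. The difference was -0.41 ± 0.06 (adjusted p = 0.00181), and -0.23 after quantile normalization (adjusted p = 0.0378).

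Acadl, the long-chain enzyme, was lower by 0.38 ± 0.06 (adjusted p = 0.00211), and Acadvl, the very long-chain enzyme of the inner membrane, by 0.27 ± 0.05 (adjusted p = 0.00730). Acad9, which is also an assembly factor of respiratory complex I, was lower by 0.25 ± 0.05 (adjusted p = 0.00948). The FXR and control arrays of these 3 genes did not overlap, and none of the 3 was called after quantile normalization, where the differences were -0.16, -0.04 and -0.12. Acad10, Acad11 and Acad12, of less settled function, were not called, with differences of -0.19, -0.32 and -0.05. The last 3 genes varied more between FXR BAT arrays than the others of the family. Acad11 ranged over 9.82 to 10.70 in FXR BAT and over 10.42 to 11.06 in control BAT, and its lowest value was on FXR BAT 1.

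Hydration, a further dehydrogenation and thiolysis follow in the mitochondrial cycle, and of their 6 measured mitochondrial genes 5 were lower in FXR BAT and Hadhb was not called. The share lower was 8.75% over all genes and 56.1% among other genes of level 11 or more. Echs1, the short-chain enoyl-CoA hydratase, read 11.15, 11.30, 11.46, 11.31 and 11.12 in FXR BAT, against 11.62, 11.61, 11.55, 11.65 and 11.48 in control BAT. Its groups did not overlap, although FXR BAT 3 came close to control BAT 5. Echs1 fell by 0.31 (SE 0.06, adjusted p = 0.00647). Acat1, the thiolase that splits acetoacetyl-CoA, fell by 0.27 (SE 0.06, adjusted p = 0.0107), with no overlap of the groups.

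Hadha and Hadhb encode the alpha and beta subunits of the mitochondrial trifunctional protein, which carries out the last 3 steps for long chains. Their start sites lie head to head with 272 bases between them on RefSeq's GRCm38.p6. Hadha read 12.36, 12.48, 12.41, 12.47 and 12.23 in FXR BAT, against 12.65, 12.78, 12.60, 12.71 and 12.52 in control BAT, with no overlap. Hadhb read 12.81, 12.91, 12.94, 12.88 and 12.63 in FXR BAT, against 13.00, 13.09, 13.00, 13.10 and 12.90 in control BAT, and here the groups overlapped. Hadha was lower by 0.26 ± 0.06 (adjusted p = 0.0129), while Hadhb had a difference of -0.18 ± 0.06 and was not called (adjusted p = 0.0703). Whether these differences were unequal was not tested. After quantile normalization both were near 0, at -0.01 for Hadha and 0.02 for Hadhb.

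Hadh, the short-chain hydroxyacyl-CoA dehydrogenase, and Acaa2, the mitochondrial thiolase of medium chains, were lower by 0.17 ± 0.04 (adjusted p = 0.0259) and 0.16 ± 0.05 (adjusted p = 0.0431). The groups of both genes overlapped. Hadh lost its call without FXR BAT 4 or without control BAT 1, 2 or 4, with adjusted p of 0.0508 to 0.0685. Acaa2 lost it without any 1 array except FXR BAT 3 and control BAT 5, with adjusted p of 0.0521 to 0.0980. Both estimates were above 0 after quantile normalization, at 0.02 for Hadh and 0.05 for Acaa2.

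Double bonds require isomerases and reductases beside the main cycle. Eci1, the mitochondrial enoyl-CoA isomerase, read 10.84, 10.85, 11.04, 10.96 and 10.83 in FXR BAT, against 11.29, 11.37, 11.19, 11.26 and 11.21 in control BAT. The groups were separate. Eci1 fell by 0.36 (SE 0.05, adjusted p = 7.74e-04), or 21.9%, and by 0.16 after quantile normalization (adjusted p = 0.0424). Decr1, the mitochondrial dienoyl-CoA reductase, was lower by 0.20 ± 0.06 (adjusted p = 0.0340). Its call was lost without FXR BAT 1, 2 or 5 or control BAT 1, 2 or 4 (adjusted p of 0.0616 to 0.0877), and its estimate was 0.03 after quantile normalization. Eci2 and Ech1, which act on double bonds in both organelles, had differences of -0.23 ± 0.07 and -0.15 ± 0.05 and were not called (adjusted p = 0.0569 and 0.0556), although the FXR arrays of Ech1 lay below all its control arrays.

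Electron transfer flavoprotein consists of Etfa and Etfb and hands its electrons to Etfdh, a ubiquinone oxidoreductase of the inner membrane. Etfdh read 12.10, 11.99, 12.29, 12.37 and 12.16 in FXR BAT, against 12.49, 12.73, 12.50, 12.73 and 12.53 in control BAT. All FXR values were below all control values. Etfdh was lower by 0.41 ± 0.08 (adjusted p = 0.00449), or 24.9%, against -0.18 after quantile normalization (adjusted p = 0.225). Etfa was lower by 0.26 ± 0.06 (adjusted p = 0.0129) with overlapping groups, and Etfb had a difference of -0.19 ± 0.07 and was not called (adjusted p = 0.0809).

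**Figure D2:**
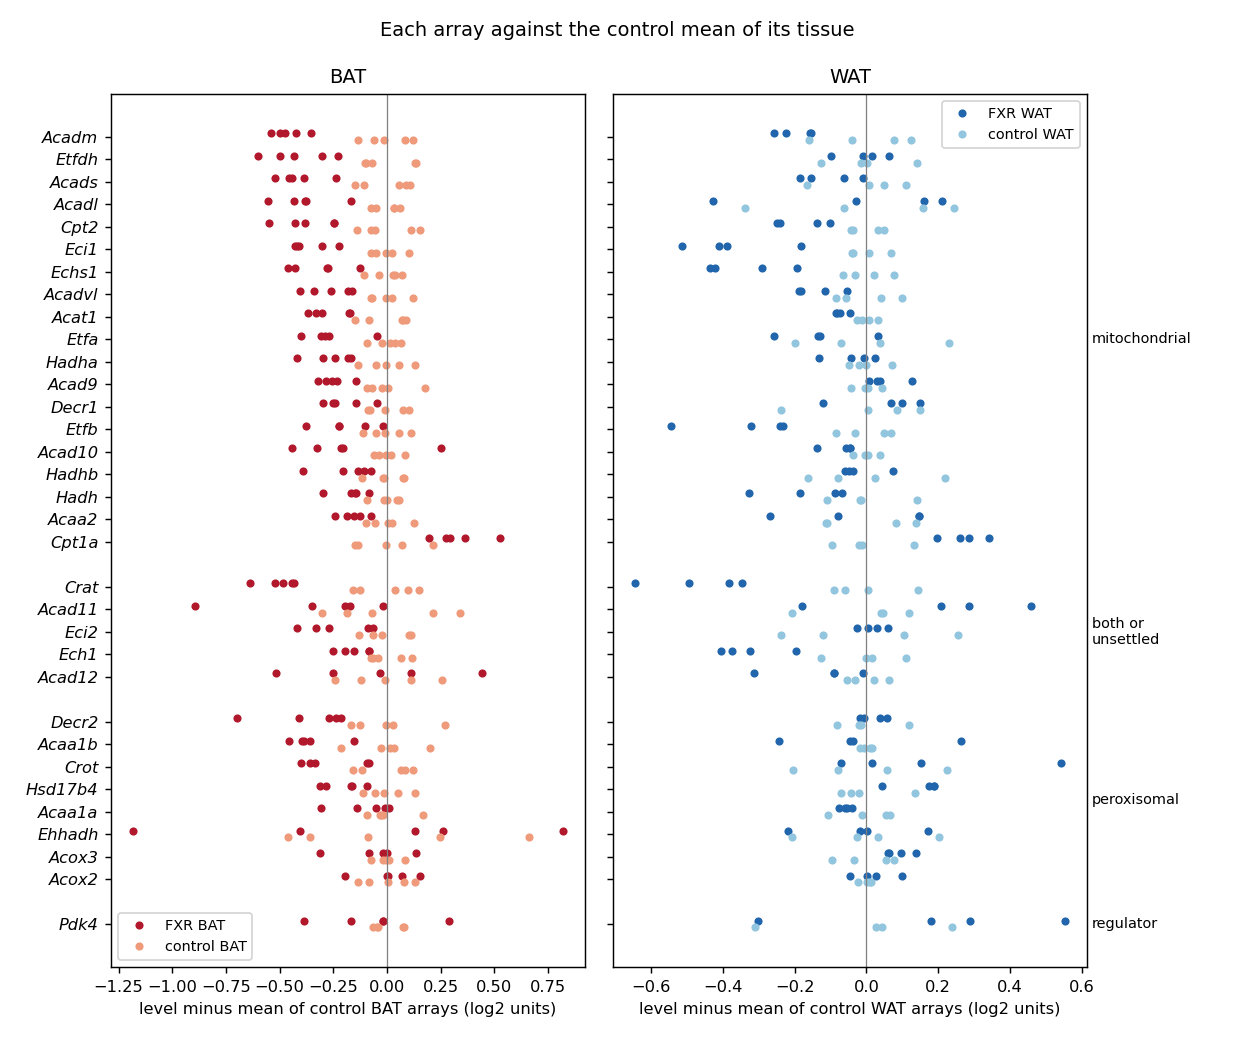
Each point is 1 array, and the horizontal axis gives its level minus the mean of the control arrays of the same tissue in log2 units, for the 33 genes grouped by place. In BAT, FXR arrays lie to the left of all control arrays for 14 genes, Acadm and Crat among them, and in WAT this holds for 8 genes.

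Of the 8 peroxisomal genes, 3 were lower in FXR BAT and 5 were not called, against 8.75% of all genes lower. Among genes outside the members, 13.9% were lower at levels from 7 to 9 and 39.0% at levels from 9 to 11. After quantile normalization 1 peroxisomal gene was lower, and without control BAT 2 and 4 the count was 0. Decr2, the peroxisomal dienoyl-CoA reductase, read 9.31, 9.60, 9.74, 9.77 and 9.79 in FXR BAT, against 10.00, 10.28, 9.84, 10.04 and 9.89 in control BAT. The groups were apart, with the lowest value on FXR BAT 1. Decr2 was lower by 0.37 ± 0.10 (adjusted p = 0.0344). The call was lost without FXR BAT 1 or 2 or control BAT 1, 2 or 4 (adjusted p of 0.0516 to 0.0775).

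Acaa1b, a peroxisomal thiolase, read 7.46, 7.69, 7.49, 7.39 and 7.46 in FXR BAT, against 7.88, 8.05, 7.63, 7.86 and 7.82 in control BAT. FXR BAT 2 lay above control BAT 3, and the other FXR arrays lay below all controls. The difference was -0.35 ± 0.08 (adjusted p = 0.00948), and it was -0.36 after quantile normalization (adjusted p = 0.0153). Without control BAT 2 and 4 it was -0.28 and not called (adjusted p = 0.0677). Hsd17b4, the multifunctional enzyme for branched and very long chains, was lower by 0.20 ± 0.06 (adjusted p = 0.0300) with overlapping groups. This call was lost without FXR BAT 1 or 5 or control BAT 2, 3 or 4 (adjusted p of 0.0556 to 0.0763).

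The remaining peroxisomal genes were not called. Acaa1a, the paralogue of Acaa1b, had a difference of -0.10 ± 0.07, and since the paralogues are near-identical copies their probe sets may share signal. Acox2 and Acox3, acyl-CoA oxidases of branched chains, had differences of 0.01 ± 0.07 and -0.06 ± 0.07. Ehhadh, the peroxisomal bifunctional enzyme and a classical PPAR alpha target, was the most variable member. It read 9.04, 10.35, 9.82, 11.04 and 10.48 in FXR BAT, against 10.14, 10.89, 9.86, 10.47 and 9.76 in control BAT. The groups overlapped widely, and the difference of -0.08 ± 0.34 had an adjusted p of 0.927.

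Pdk4, pyruvate dehydrogenase kinase 4, spares glucose by switching off pyruvate dehydrogenase and rises with fatty acid use. It read 12.19, 12.56, 12.56, 12.87 and 12.41 in FXR BAT, against 12.53, 12.65, 12.53, 12.66 and 12.51 in control BAT. The FXR arrays spread on both sides of the narrow control range, and the difference of -0.06 ± 0.10 was not called (adjusted p = 0.771).

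**Figure D3:**
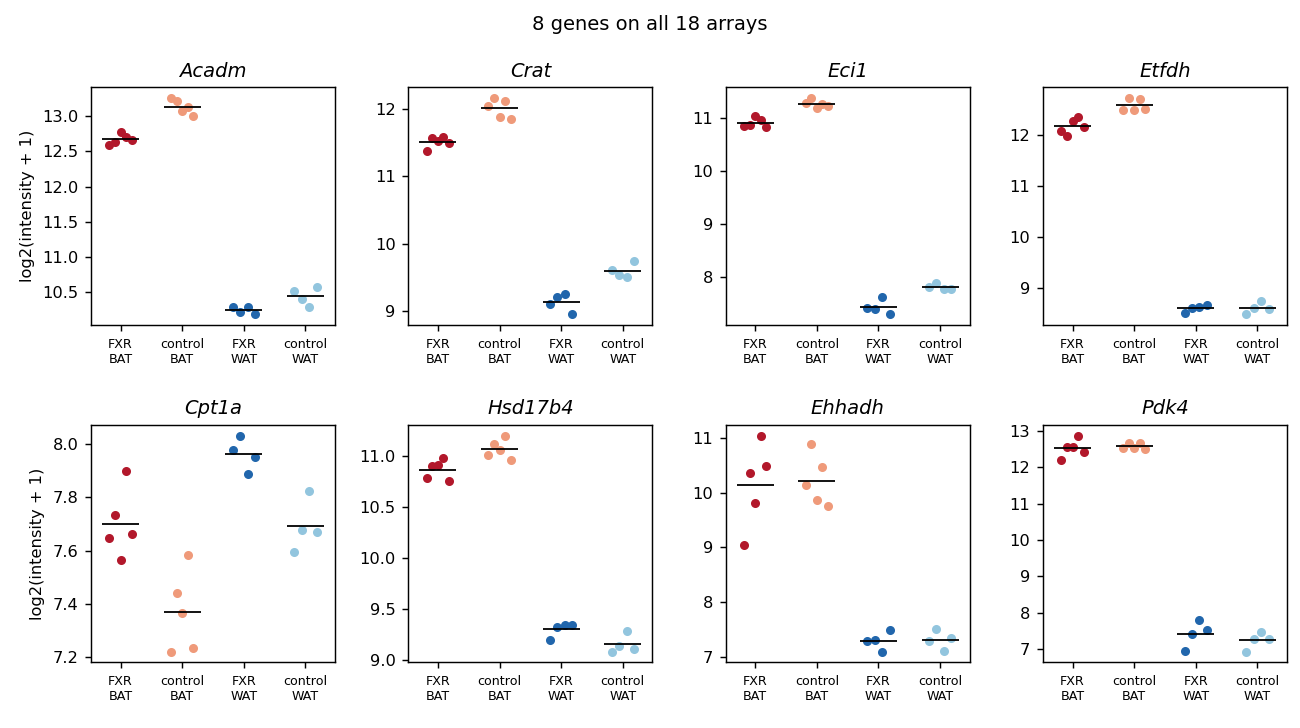
Levels, log2(intensity + 1), of 8 genes on all 18 arrays are shown, with 1 point per array and a black line at the mean of each group, and the vertical axes do not start at 0. Acadm, Crat, Eci1 and Etfdh were lower in FXR BAT without overlap, Cpt1a was higher, Hsd17b4 was lower with overlap, and Ehhadh and Pdk4 were not called.

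Taken by place, the median difference in BAT was -0.26 over 19 mitochondrial genes and -0.15 over 8 peroxisomal genes, against 0.01 over all genes. The mitochondrial genes also read brighter, with a median control BAT level of 12.10 against 9.09 for the peroxisomal genes. Genes outside the members had median differences of -0.25 at levels of 11 or more, -0.18 from 9 to 11 and -0.03 from 7 to 9. Place and brightness therefore cannot be told apart in these medians. The mean over mitochondrial genes was 11.27 ± 0.08 in FXR BAT and 11.52 ± 0.08 in control BAT (SD, n = 5 each), and FXR arrays at 11.18 to 11.37 lay below control arrays at 11.42 to 11.59. The mean over peroxisomal genes was 8.88 ± 0.15 in FXR BAT and 9.05 ± 0.11 in control BAT, with overlap. The mitochondrial mean minus the peroxisomal mean was 2.27 to 2.56 on FXR BAT arrays and 2.41 to 2.53 on control BAT arrays, and the ranges overlapped. After quantile normalization the medians were -0.07 for mitochondrial and -0.05 for peroxisomal genes. In WAT the median differences were -0.07 for mitochondrial and 0.02 for peroxisomal genes, and the mitochondrial mean minus the peroxisomal mean was 0.93 to 1.10 on FXR arrays and 1.12 to 1.17 on control arrays, without overlap. No test was made of these class values, since the members were chosen with results known.

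**Figure D4:**
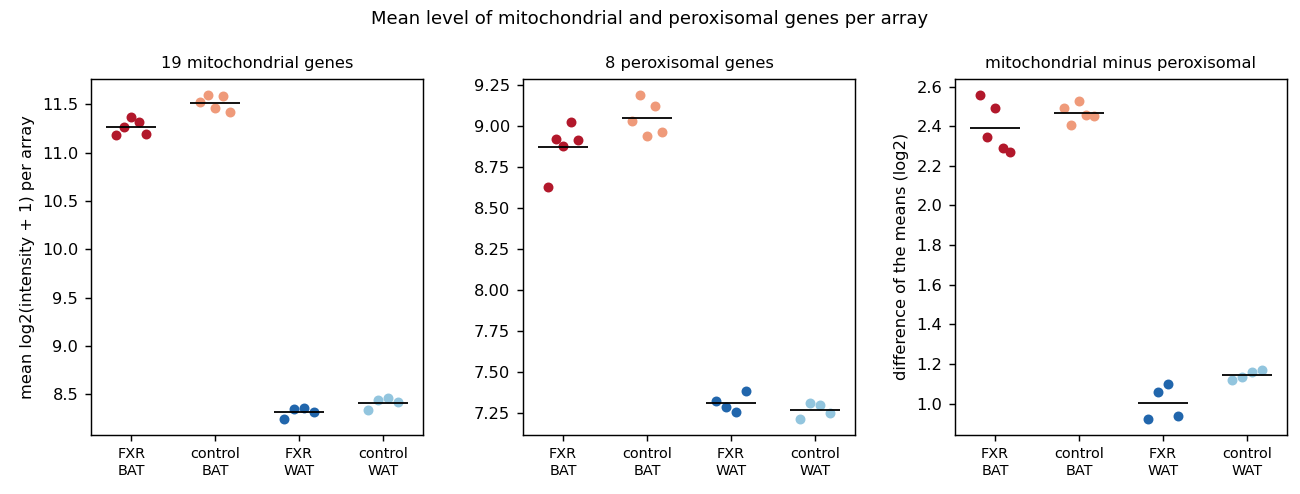
Each point is 1 array, the vertical axes give the mean log2(intensity + 1) over 19 mitochondrial genes, over 8 peroxisomal genes, and the difference of both means, and the lines are group means, with axes that do not start at 0. The mitochondrial mean was 11.27 in FXR BAT and 11.52 in control BAT, and the difference of the means overlapped between genotypes in BAT and not in WAT.

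Markers of other cell types moved in the same BAT comparison, where 8.75% of all genes were lower and 7.01% higher. Of 19 mature adipocyte markers 14 were lower, and their summed intensity was 59595 to 66751 in FXR BAT and 73040 to 86466 in control BAT. Of 18 brown adipocyte markers 13 were lower and 1 was higher, with sums of 26506 to 30308 in FXR BAT and 37065 to 44911 in control BAT. After quantile normalization, 3 mature adipocyte and 11 brown adipocyte markers were lower, against 6.88% of all genes. Ppara and Ppargc1a are also on the brown list and Pparg on the mature adipocyte list. Ucp1 was lower by 0.48 ± 0.08 (adjusted p = 0.00247), beside 12.77 ± 0.16 in FXR BAT and 13.25 ± 0.12 in control BAT (SD, n = 5 each), and its difference was -0.25 after quantile normalization. Dio2, which activates thyroid hormone in brown fat, was lower by 2.15 ± 0.25 (adjusted p = 2.41e-04) and by 2.11 after quantile normalization.

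In the same tissue, 20 of 24 macrophage markers and 13 of 14 fibroblast markers were higher in FXR BAT, against 7.01% of all genes. After quantile normalization, 18 macrophage and 13 fibroblast markers were higher, against 5.38% of all genes. The macrophage sum was 5060 to 5830 in FXR BAT and 2965 to 3776 in control BAT, and the fibroblast sum was 14328 to 17319 in FXR BAT and 5745 to 8794 in control BAT. Csf1r, the receptor for macrophage growth factor, was higher by 0.99 ± 0.09 (adjusted p = 6.12e-05), and Pdgfra, a marker of adipose progenitors, by 1.39 ± 0.11 (adjusted p = 3.10e-05). Skeletal muscle markers summed to 55571, 36156, 4022, 57939 and 11194 on FXR BAT 1 to 5, against 3780 to 14324 in control BAT, and 2 of 29, the fast myosin genes Myh1 and Myh2, were called higher. No muscle, macrophage or fibroblast marker lay within 1.5-fold of the array floor in FXR BAT. In control BAT, 3 macrophage markers lay within that range. For endothelium, 4 of 13 markers were lower and 1 was higher. None of 12 hepatocyte and none of 10 epididymis or testis markers was called. Without the muscle-rich FXR BAT 1, 2 and 4, which leaves 2 FXR arrays, 9 members were lower and 0 were higher, against 4.98% of all genes lower and 4.61% higher. The 9 included Acadm (-0.42), Eci1 (-0.33), Etfdh (-0.37) and Crat (-0.50). Without control BAT 2 and 4, the marker counts were 6 lower for mature adipocytes, 10 lower for brown adipocytes, 17 higher for macrophages, 12 higher for fibroblasts, 2 lower for endothelium and 0 for skeletal muscle. The part of the shifted cell types in the members' differences was not tested.

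In FXR WAT, 4 members were lower and 1 was higher than in control WAT, against 0.456% of all genes lower and 0.873% higher. The 5 were Crat, Eci1, Echs1, Ech1 and Cpt1a, and 28 members were not called. All FXR arrays lay below all control arrays for 8 of the 33 members, and for 3.47% of all genes. The median difference was -0.02 over the members and 0.00 over all genes. After quantile normalization of the 8 WAT arrays the same 5 genes were called in the same directions, against 0.707% of all genes lower and 0.973% higher. Of the cell type markers, 1 mature adipocyte marker was higher and 1 lower in WAT, and 1 brown adipocyte marker was lower. No marker of the other cell types was called. Fibroblast markers summed to 9648 to 13765 in FXR WAT and 7131 to 9848 in control WAT. Epididymis and testis markers summed to 557 to 1646 in FXR WAT and 548 to 610 in control WAT. The part of these cell types in the WAT differences was not tested.

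Crat read 9.11, 9.22, 9.26 and 8.96 in FXR WAT, against 9.61, 9.55, 9.51 and 9.75 in control WAT, without overlap. It was lower by 0.47 ± 0.07 (adjusted p = 0.0256), or 27.7%. Eci1 read 7.42, 7.40, 7.63 and 7.30 in FXR WAT, against 7.82, 7.88, 7.77 and 7.78 in control WAT, and was lower by 0.37 ± 0.07 (adjusted p = 0.0353). The control values of Eci1 lay within a narrow band that no FXR array reached. Echs1 read 7.77, 8.00, 7.90 and 7.76 in FXR WAT, against 8.13, 8.21, 8.27 and 8.16 in control WAT, and was lower by 0.34 ± 0.06 (adjusted p = 0.0354).

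Ech1 read 9.84, 9.81, 10.02 and 9.89 in FXR WAT, against 10.21, 10.09, 10.23 and 10.33 in control WAT, and was lower by 0.32 ± 0.06 (adjusted p = 0.0412). Cpt1a read 7.98, 8.03, 7.89 and 7.95 in FXR WAT, against 7.59, 7.68, 7.82 and 7.67 in control WAT, and was higher by 0.27 ± 0.05 (adjusted p = 0.0467). All 4 FXR arrays were above all control arrays for Cpt1a and below them for Ech1. These calls were close to the threshold, and each was lost without some single arrays. Crat lost it without FXR WAT 1 or control WAT 1, 2 or 4 (adjusted p of 0.0636 to 0.0727), Eci1 without FXR WAT 1, 2 or 4 or control WAT 1, 2 or 4 (0.0663 to 0.116), Echs1 without any 1 array except FXR WAT 2 (0.0575 to 0.116), Ech1 without any except FXR WAT 3 (0.0599 to 0.102) and Cpt1a without any except control WAT 3 (0.0593 to 0.144).

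Among genes not called in WAT, Etfb had a difference of -0.33 ± 0.07 (adjusted p = 0.0628) and Cpt2 one of -0.18 ± 0.04 (adjusted p = 0.0920), both with all FXR arrays below all controls. Acadm, with the second-largest difference in BAT, had a difference of -0.20 ± 0.06 in WAT (adjusted p = 0.193). None of the 8 peroxisomal genes was called in WAT, where 1 of them had an unadjusted p under 0.05. Crat, Eci1, Echs1 and Cpt1a were called in both tissues, and all 4 had the same sign in each.

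The test of the difference between tissues (the FXR effect in WAT less that in BAT, fitted over 18 arrays) called 3 members, all higher, and 30 were not called. Over all genes, 4.44% were higher and 2.02% lower in this test. Hsd17b4 had a difference of 0.35 ± 0.08 (adjusted p = 0.0139). It read 10.79, 10.91, 10.91, 10.98 and 10.76 in FXR BAT, against 11.02, 11.12, 11.06, 11.20 and 10.96 in control BAT, and 9.20, 9.33, 9.34 and 9.34 in FXR WAT, against 9.08, 9.13, 9.29 and 9.11 in control WAT. The FXR values thus lay on the lower side in BAT and on the higher side in WAT, where the change alone, 0.15 ± 0.05, was not called.

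Acad9 had a difference of 0.30 ± 0.07 (adjusted p = 0.0139) and Etfdh one of 0.41 ± 0.11 (adjusted p = 0.0280). Their changes in WAT alone were 0.05 ± 0.04 and -0.01 ± 0.06. Etfdh lost the call without control BAT 2 or 4, control WAT 1, 2 or 4, or FXR WAT 4 (adjusted p of 0.0505 to 0.0640). Without both control BAT 2 and 4, Acad9 was called (0.24, adjusted p = 0.0297), while Hsd17b4 (0.29, adjusted p = 0.0571) and Etfdh (0.32, adjusted p = 0.114) were not. Without FXR BAT 1, 2 and 4, Etfdh was not called (0.36, adjusted p = 0.0551). After quantile normalization of all 18 arrays none of these 3 was called (0.13 for Hsd17b4, 0.15 for Acad9 and 0.13 for Etfdh), while Ech1 (-0.50), Etfb (-0.45) and Echs1 (-0.32) were called lower, against 2.33% of all genes higher and 1.78% lower, so this test gave different genes under different scalings.

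In control mice, 32 of the 33 genes were higher in BAT than in WAT and Cpt1a was lower, but 94.8% of all genes were also higher and 1.98% lower, and the deposited BAT arrays were brighter throughout. The median gene was higher by 0.59 in BAT. Relative to that median gene the members were higher by a median of 2.15, over a range of -0.91 to 4.74. After quantile normalization of the 9 control arrays, 31 members were higher, against 29.1% of all genes, and the median was 1.13, with 1.77 for mitochondrial and 0.23 for peroxisomal genes.

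Pdk4 had the largest tissue difference, at 12.58 ± 0.07 in control BAT (SD, n = 5) and 7.25 ± 0.23 in control WAT (SD, n = 4), a difference of 5.33 as deposited and 3.83 after quantile normalization. It was followed by Acaa2 at 4.71 and 3.14, and by Acadl at 4.27 and 2.64. Cpt1a averaged 7.37 ± 0.15 in control BAT and 7.69 ± 0.10 in control WAT, a difference of -0.32 as deposited and -1.51 after quantile normalization. The liver-type enzyme was thus the 1 member lower in brown than in white fat under both scalings. Of all 19937 genes, 5736 were lower in BAT after quantile normalization. Acaa1a, at 1.30 as deposited and 0.06 after quantile normalization, was the 1 member not called in the second setting.

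**Figure D5:**
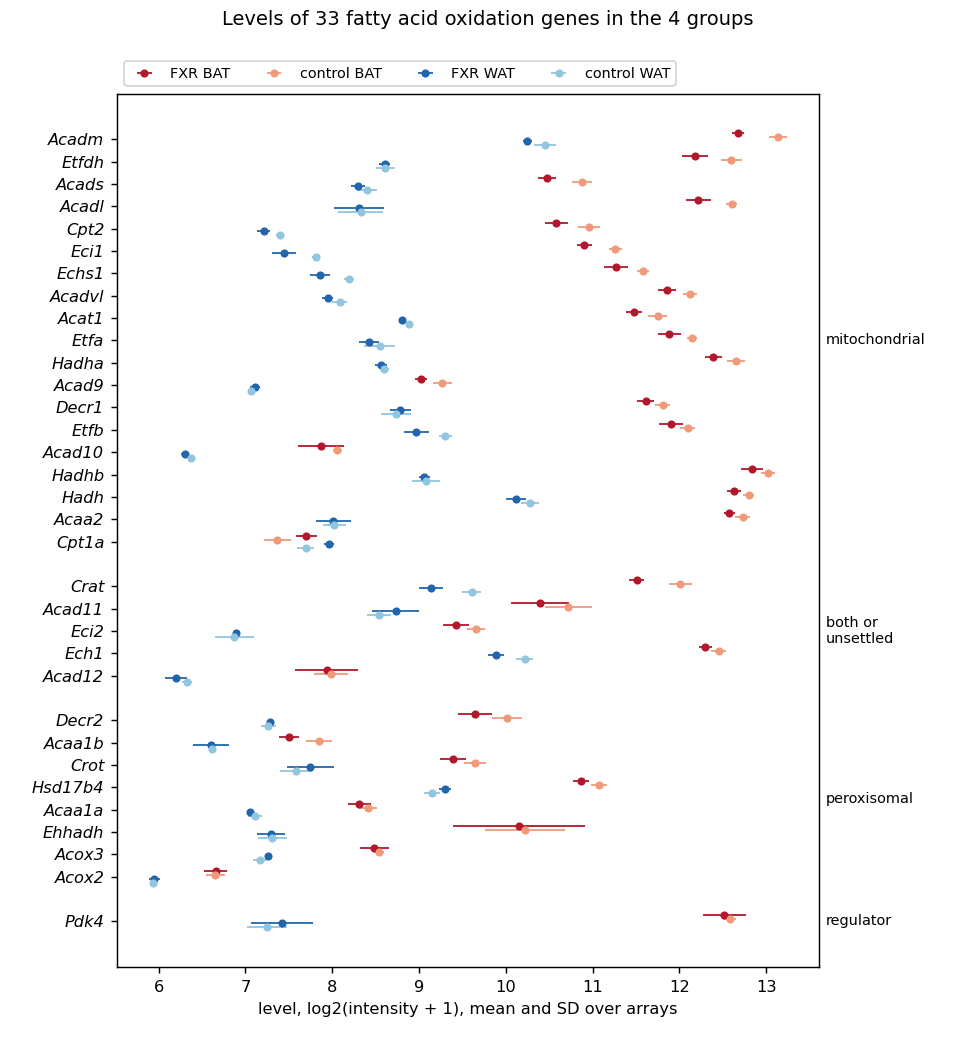
Points are group means of log2(intensity + 1) and bars are SD over 5 arrays per BAT group and 4 per WAT group, for the 33 genes grouped by place. The spread between tissues exceeds that between genotypes for most genes, with Pdk4 at 12.58 in control BAT and 7.25 in control WAT, and Cpt1a is the 1 gene lower in BAT.

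Other genes of fatty acid handling in mitochondria were described by a list of 19 measured genes, of which 12 were lower and 1 was higher in FXR BAT, with a median of -0.37. The shares over all genes were 8.75% lower and 7.01% higher, and 6.88% and 5.38% after quantile normalization. Mcee and Mmut, which convert the propionate left by odd chains, averaged 10.23 ± 0.08 and 10.87 ± 0.16 in FXR BAT, against 10.83 ± 0.09 and 11.25 ± 0.06 in control BAT (SD, n = 5 each). The differences were -0.60 ± 0.05 (adjusted p = 5.11e-05) for Mcee, -0.39 ± 0.07 (adjusted p = 0.00319) for Mmut and -0.39 ± 0.06 (adjusted p = 0.00158) for Pccb, a subunit of propionyl-CoA carboxylase. Slc25a20, the carnitine-acylcarnitine translocase between Cpt1 and Cpt2, fell by 0.43 (SE 0.08, adjusted p = 0.00354). Slc22a5, the plasma membrane carnitine transporter, had a difference of -0.33 ± 0.12 and was not called (adjusted p = 0.101). Cpt1c, a brain-type relative of Cpt1a, was higher by 0.12 ± 0.03 (adjusted p = 0.0250). After quantile normalization, Mcee was the 1 gene of this list still lower (-0.43), and 0 were higher.

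Of 32 measured peroxisomal proteins outside the members, 17 were lower and 1 was higher in FXR BAT, with a median of -0.25, and 13 were lower and 2 higher after quantile normalization. Pex14, Pex7 and Pex11a, which serve import into peroxisomes and their division, were lower by 0.42 ± 0.05, 0.47 ± 0.06 and 0.34 ± 0.05 (adjusted p = 2.50e-04, 2.82e-04 and 0.00146). Far1, which makes fatty alcohols for ether lipids, was the gene called higher, at 0.24 ± 0.07 (adjusted p = 0.0319). The importers of this list kept differences of -0.34 for Pex14 and -0.36 for Pex7 after quantile normalization. Of 4 measured ketone body genes, Bdh2, a hydroxybutyrate dehydrogenase of the cytosol, was higher by 0.29 ± 0.05 (adjusted p = 0.00389) and 3 were not called.

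Among 20 measured regulators of fatty acid oxidation, 8 were lower and 0 higher in FXR BAT, and 6 were lower after quantile normalization. Ppargc1a, which encodes PGC-1 alpha, averaged 8.28 ± 0.11 in FXR BAT and 9.05 ± 0.30 in control BAT (SD, n = 5 each), without overlap, and fell by 0.78 (SE 0.12, adjusted p = 0.00195) as deposited and by 0.69 after quantile normalization. Esrra, which encodes ERR alpha, fell by 0.36 (SE 0.07, adjusted p = 0.00405) and by 0.28 after quantile normalization. Prkaa1, a catalytic subunit of AMP-activated kinase, fell by 0.52 (SE 0.05, adjusted p = 9.78e-05) and by 0.39 after quantile normalization. Ppara had a difference of -0.39 ± 0.14 with overlapping groups and was not called (adjusted p = 0.0814).

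The pyruvate dehydrogenase complex with its kinases and phosphatases had 6 lower and 1 higher of 10 measured genes in FXR BAT, and 2 lower after quantile normalization. Pdp2, a phosphatase that switches the complex on, was lower by 0.67 ± 0.11 (adjusted p = 0.00193), and Dlat and Dld, core subunits, by 0.41 ± 0.08 and 0.35 ± 0.07 (adjusted p = 0.00452 and 0.00626). Pdp1, the other phosphatase, was higher by 0.32 ± 0.09 (adjusted p = 0.0380). Pdk2, a kinase of the complex, was lower by 0.32 ± 0.08 in BAT (adjusted p = 0.0228) and by 0.48 ± 0.08 in WAT (adjusted p = 0.0290). Also lower in WAT were Acot2, a mitochondrial acyl-CoA thioesterase (-0.38 ± 0.06, adjusted p = 0.0266), Mmut (-0.22 ± 0.04, adjusted p = 0.0349) and Pparg, the adipocyte PPAR (-0.29 ± 0.05, adjusted p = 0.0435). No gene of the peroxisomal or ketone body lists was called in WAT.

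Without FXR BAT 1, 2 and 4, the BAT counts became 7 of 19 lower for mitochondrial handling and 11 of 32 for peroxisomal proteins. They were 3 of 20 for regulators and 6 of 10 for the pyruvate dehydrogenase group, against 4.98% of all genes lower. Without control BAT 2 and 4, the same lists had 5, 7, 4 and 2 genes lower, against 3.57% of all genes. The lists were drawn up with earlier results of these data known, so their directions are no independent evidence.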

How the data were processed

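Per the labels, 500 ng of total RNA of each sample was biotin-labelled for an Affymetrix mouse gene array. The deposited values are intensities on a linear scale for 34760 probe sets and 18 arrays. The summarisation and normalization by which the authors made these deposited intensities are not stated in the labels, and no detection call was used. Probe sets with exactly 1 gene symbol were kept (21640, with 1321 naming several symbols and 11799 naming none), and each gene was represented by its brightest probe set (mean over all arrays), giving 19937 genes. No gene was removed for low signal. A level is log2(intensity + 1). Moderated two-sided tests (lmFit, eBayes; limma 3.58.1, R 4.3.3) were run within the 10 BAT arrays, the 8 WAT arrays, the 9 control arrays, and over all 18 arrays for the difference between tissues, with Benjamini-Hochberg adjustment over all genes and a threshold of 0.05. The method was tested on simulated data.

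The members, gene lists and settings were chosen with earlier results of these data known. All measured members are named, with up to 3 called genes per direction of each further pathway list, by smallest adjusted p, and Ppara, Ppargc1a, Esrra, Slc25a20, Pdk2 and Slc22a5. Lists are described by counts and medians, without a test. Arrays scaled otherwise, other filters and omitted arrays are described at the end. Promoters came from RefSeq (GRCm38.p6).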

Additional observations from a re-analysis of the deposited data

Results flagged for a closer look

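In 4 cases a single array stood apart from the rest of their group (Dixon's test at the 95% level), out of 132 combinations of gene and group, where chance alone flags about 1 in 20. Acad10 was at 6.23 on FXR WAT 2, and the remaining 3 arrays of that group gave 6.32 to 6.33. Hadhb read 9.15 on FXR WAT 4, against 9.02 to 9.04 on the others. Hsd17b4 read 9.20 on FXR WAT 1, against 9.33 to 9.34 on the others. Acaa1a read 8.58 on control BAT 2, against 8.32 to 8.39 on the other control BAT arrays.

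The FXR effect differed between tissues in the test over all 18 arrays for 3 members and 15 genes of the further pathway lists. Each had a higher WAT change than BAT change as deposited (log2, WAT change minus BAT change). Over all genes, 4.44% were higher and 2.02% lower. The lists held 19 measured genes of mitochondrial handling, 32 of peroxisomal proteins, 4 of ketone bodies, 20 regulators and 10 of the pyruvate dehydrogenase group. Of these 15 genes, 12 are named here. The members were Acad9 (0.30), Hsd17b4 (0.35) and Etfdh (0.41). In mitochondrial handling the genes were Mcee (0.67), Slc25a20 (0.57) and Acss1 (0.70). Among peroxisomal proteins they were the transporters Abcd3 (0.76) and Slc25a17 (0.68) and the biogenesis factors Pex14 (0.34) and Pex7 (0.47). Oxct1 (0.54), which uses ketone bodies, Dlat (0.43) and Pdp2 (0.58) of pyruvate dehydrogenase, and the regulators Ppargc1a (0.71) and Esrra (0.32) were also called. Some of these genes were dim in control WAT, at 1.416-fold of the array floor for Ppargc1a and 1.499-fold for Pdp2. Acss1 lay at 1.88-fold and Esrra at 2.088-fold. For Ppargc1a and Pdp2 the test cannot tell an absent fall in WAT from a fall hidden by the floor. After quantile normalization, the genes called in this test were 2 higher instead of 3 for mitochondrial handling, 3 higher and 2 lower instead of 7 higher for peroxisomal proteins, 0 instead of 1 for ketone bodies, 1 instead of 2 for regulators, and 0 higher and 1 lower instead of 2 higher for the pyruvate dehydrogenase group. None of the 3 members was called in that setting, where 2.33% of all genes were higher and 1.78% lower.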

How the results depend on the processing

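The count of members lower in FXR BAT was 19 with values as deposited, 5 after quantile normalization and 24 with median centring. It was 8 without control BAT 2 and 4, and 9 without FXR BAT 1, 2 and 4, an alternative added after the data were seen. When single arrays were left out it was 14 to 24. Members higher in BAT numbered 1, and 0 with arrays centred on their median and 0 without FXR BAT 1, 2 and 4. Of the 20 BAT calls, 4 (Acadm, Acads, Eci1 and Crat) held in every setting run. Quantile normalization brought the mitochondrial median in BAT to -0.0676 and turned Hadh to 0.0228, Acaa2 to 0.0518 and Decr1 to 0.0269. Members called in WAT numbered 5, and 2 with trend and robust variance, 3 with the replicate block, and 0 to 3 without single arrays. The peroxisomal median in WAT ranged from -0.001 to 0.0466 without single arrays, and was -0.001 without FXR WAT 4. Members called for the difference between tissues numbered 3, and 6 with median centring, 6 with the replicate block, 1 without control BAT 2 and 4, and 2 to 7 without single arrays. The cause of these changes was not tested. Deviations from the group means of same-numbered FXR and control samples correlated at -0.49 to 0.28 in BAT and at 0.01 to 0.16 in WAT. The best match carried the same number for BAT 5 and for WAT 1 and 2 only. With so few samples this check cannot tell whether the replicate numbers pair the samples. The block gave 19 members lower in BAT, of which 17 were lower as deposited. Acaa2 and Decr2 lost the call, and Hadhb and Eci2 gained it. For the difference between tissues, 68.7% of all genes called were higher as deposited, 86.9% with median centring and 56.7% with quantile normalization, which kept 0 of the 3 members called. All genes called in BAT numbered 1398 higher and 1744 lower, against 776 and 4076 with median centring, which moved the median gene to -0.07, and 704 and 712 without control BAT 2 and 4. The arrays carry no detection call, and Acox2 lay within 1.30-fold of the floor in control WAT, so small changes of dim genes could not be measured.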
